A study of Homo sapiens with 8 samples.

Results

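The progesterone receptor (PR) sites of 2 derivatives of the human breast cancer line T47D were compared after the same progestin treatment, as mapped by ChIP-seq, in which DNA held by a protein is recovered with an antibody and sequenced. T47D A1/2 cells (A1-2) are described by the series as having both PR and the glucocorticoid receptor (GR), and T47D MTVL WT cells (MTVL) are the line its labels name as the control. Each line was exposed for 60 min to 10 nM R5020, a synthetic progestin, after hormone-stripped serum and serum starvation, and PR was precipitated from both with the same antibody, anti-PR H-190. Members were the peaks of these 2 lists on chromosomes 1 to 22 and X that did not overlap a peak of the A1-2 input DNA list. They numbered 71332 of the 94404 peaks deposited for the 8 libraries of the series, namely 28262 of 28563 in A1-2 cells and 43070 of 43398 in MTVL cells. For MTVL cells no input DNA was analysed here.

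PR is a nuclear receptor that a progestin brings onto DNA, where it binds as a dimer to hormone response elements, inverted repeats that GR can also recognise. Most such sites lie in enhancers away from promoters, and in a hormone-responsive line their occupancy rises within the first hour of treatment. As general knowledge of these lines, A1-2 cells carry a stably introduced GR gene and MTVL cells an integrated reporter driven by the mouse mammary tumour virus promoter. Each is a single derived line, so what separates the lines also includes anything that differs between 2 cultures of one origin.

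Each line and condition had 1 library. No difference between the lines therefore has a replicate check, no p-value is given, and the line cannot be told apart from its library. The intervals are 95% intervals over peaks and reflect counting error alone. How deeply each library was read is not known here, and the length of a list can move with depth. Without hormone the PR lists held 630 peaks in A1-2 cells and 219 in MTVL cells. The deposited score is the authors' own value for a peak, taken as -10 times the log10 of its p. It was used only to rank peaks within a list, and decile 10 is the highest-scoring of 10 equal classes of a list. Positions are in the hg19 build, counted from 1.

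Most PR sites of A1-2 cells were also PR sites of MTVL cells, and the MTVL list held a large further set. Merged over both lists, the peaks made 47838 regions, of which 23057 (48.2%, 47.7 to 48.6) were bound in both lines. A further 19898 regions (41.6%, 41.2 to 42.0) were MTVL only and 4883 (10.2%, 9.94 to 10.48) were A1-2 only. From the A1-2 side 23379 of 28262 peaks were found in MTVL cells, and from the MTVL side 23172 of 43070 were found in A1-2 cells. The counts of the 2 sides differ because 316 MTVL peaks spanned several A1-2 peaks, up to 3, while 112 A1-2 peaks spanned several MTVL peaks. The asymmetry moved with the length of the lists. With the MTVL list shortened by score to the length of the A1-2 list, 69.4% (68.9 to 69.97) of the A1-2 peaks and 68.5% (68.0 to 69.1) of the MTVL peaks were shared.

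Line-specific sites came mainly from the weak end of each list. Of the A1-2-only peaks 4162 (85.2%) lay in deciles 1 to 5 of the A1-2 score, compared with 42.6% of the shared A1-2 peaks. Of the MTVL-only peaks 14900 (74.9%) lay in deciles 1 to 5 of the MTVL score, compared with 28.6% of the shared ones. The median A1-2-only peak stood at the 22.2 percentile of its list (quartiles 10.01 and 39.4), and the median shared A1-2 peak at the 57.0 percentile (32.1 and 79.0). In the MTVL list the medians were the 30.6 percentile (14.5 and 50.1) for line-specific and the 69.4 percentile (45.9 and 86.0) for shared peaks. The quartile ranges of the classes overlapped only at their ends in both lists.

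The share of sites found in the other line rose at every step of the score, at different levels in the 2 lists. In the A1-2 list it went from 56.9% (55.0 to 58.7) in decile 1 through 83.8% (82.4 to 85.1) in decile 5 to 99.3% (98.9 to 99.6) in decile 10. In the MTVL list it was 44.6% (43.1 to 46.1) in decile 5, 77.8% (76.5 to 79.0) in decile 8 and 89.2% (88.3 to 90.1) in decile 9. The value for decile 5 of the MTVL list lay below that for decile 1 of the A1-2 list. At the ceiling of the score, 3100 or more, 656 of 659 A1-2 peaks and 2003 of 2021 MTVL peaks were shared.

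**Figure D1:**
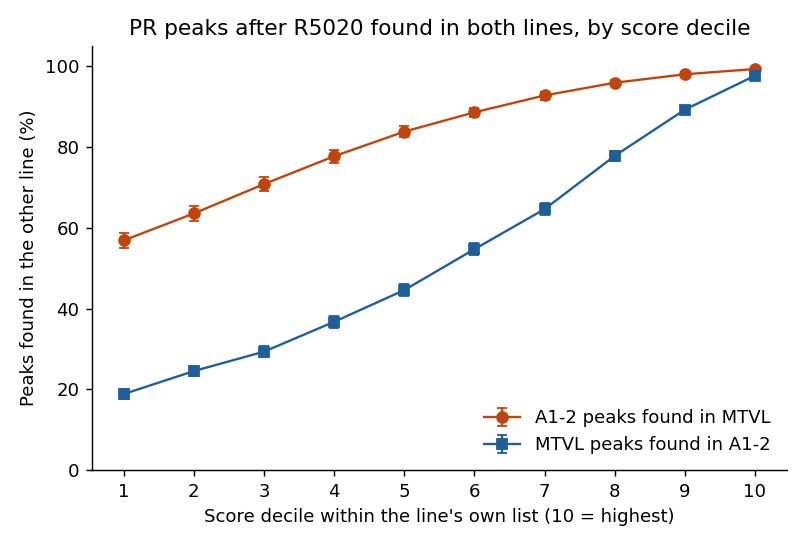
Percent of PR peaks found in the other line (y axis) by score decile within the line's own list (x axis, 10 highest), A1-2 peaks as circles and MTVL peaks as squares, with exact 95% intervals over peaks. Both rise at every step, and the A1-2 values go from 56.9% to 99.3%.

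Sites that were strong in one line were usually strong in the other. Of the 2826 top-decile A1-2 peaks, 2195 (77.7%, 76.1 to 79.2) overlapped a top-decile MTVL peak and 2788 (98.7%) a peak in deciles 6 to 10 of the MTVL list. Of the 4307 top-decile MTVL peaks, 50.7% (49.2 to 52.2) overlapped a top-decile A1-2 peak and 93.1% one in deciles 6 to 10 of the A1-2 list. The deciles differ in size with the length of the lists, so the shares of the 2 sides are not comparable. With lists of equal length, 63.2% (61.4 to 65.0) of the top-decile A1-2 peaks overlapped a top-decile MTVL peak. Among decile 1 peaks of A1-2 cells, 38 (1.34%, 0.953 to 1.84) overlapped a top-decile MTVL peak, and 9 MTVL peaks of decile 1 (0.209%, 0.0956 to 0.396) overlapped a top-decile A1-2 peak.

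The rank of a site was compared more closely in the 22662 pairs in which 1 A1-2 peak overlapped 1 MTVL peak and neither overlapped another. The rank correlation of the scores across these pairs was 0.66 (Spearman), a description over sites of the same 2 libraries. Ranked among the pairs themselves, 72.8% moved by no more than 25 percentile points between the lines and 95.03% by no more than 50. Larger moves went both ways, with 477 pairs ranking over 50 points higher in A1-2 cells and 650 over 50 points higher in MTVL cells. Opposite extremes were rare. A top-decile A1-2 peak met a decile 1 MTVL peak in 3 pairs, and the reverse was seen in 14.

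**Figure D2:**
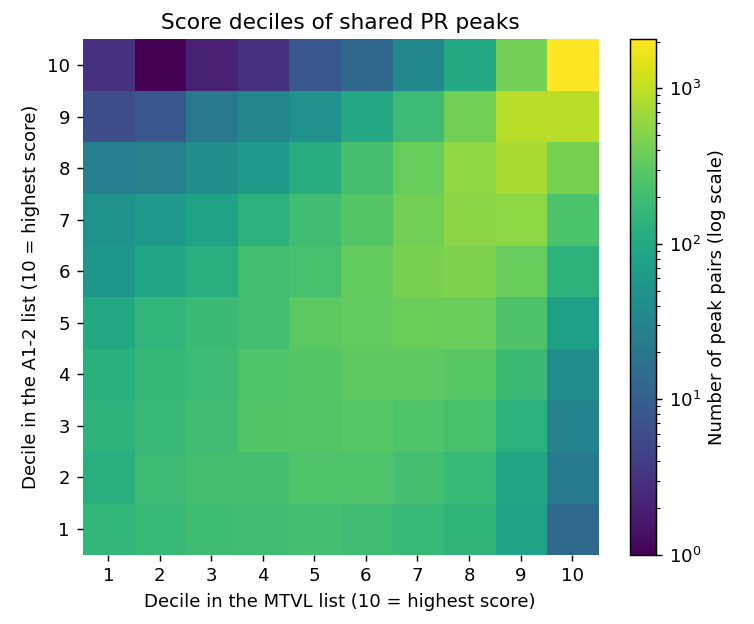
Number of one-to-one shared peak pairs (colour, log scale) by decile of the A1-2 list (y axis) and of the MTVL list (x axis), 10 being the highest score. The cell of decile 10 in both lists holds 2063 pairs, and the opposite corners hold 3 and 14.

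The pairs with the largest change of rank were shared sites near the calling threshold in one line and near the top in the other. On chromosome 8 an A1-2 peak from 82330581 to 82331033 had a score of 103.9 (2.98 percentile of its list), and the MTVL peak over it, from 82330379 to 82331813, had a score of 3100 (97.5 percentile). The pair on chromosome 7 joined an A1-2 peak from 12989360 to 12989799 (score 100.9) with an MTVL peak from 12988914 to 12989939 (score 2472). Another site of this kind lay on chromosome 12 from 46780249 to 46780885 in A1-2 cells (score 102.7) and from 46780106 to 46781923 in MTVL cells (score 2453). The MTVL peaks at these sites were 3.17, 2.33 and 2.85 times as wide as the A1-2 peaks.

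The opposite change was largest on chromosome 6, where the A1-2 peak from 158463007 to 158464172 scored 3030 (97.6 percentile) and the MTVL peak from 158463516 to 158464081 scored 113.3 (6.92 percentile). On chromosome 20 the A1-2 peak from 21665365 to 21666147 scored 1438 and its MTVL counterpart from 21665559 to 21665975 scored 102.95. On chromosome 11 the A1-2 peak from 65164432 to 65165304 scored 1336 and the MTVL peak from 65164693 to 65165171 scored 102.6. In these pairs the MTVL peak lay wholly inside the A1-2 peak, with 0.485, 0.533 and 0.549 of its width. In the 6 pairs the weaker score lay between 100.9 and 113.3, next to the lowest score of the lists, 100.

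The named shared sites of highest score were taken from each list separately, and all lay at the ceiling of the score. The highest A1-2 score was on chromosome 12 from 31973653 to 31974357 (3226), where the MTVL peak from 31973575 to 31974443 scored 2584 (93.5 percentile). The next A1-2 sites by score, among them one of chromosome 3 (187753850 to 187755376) and one of chromosome 8 (133058052 to 133059809), both with 3213, met MTVL peaks tied at 3100. The highest MTVL score, 3233, was a tie. On chromosome 1 the MTVL peak from 219605899 to 219607223 met an A1-2 peak of score 1479 (91.4 percentile), and the one from 244825770 to 244826603 met an A1-2 peak of score 997 (86.3 percentile). On chromosome 7 the MTVL peak from 123771209 to 123771981 met one of score 760 (81.7 percentile). That chromosome 7 site had no GR peak after dexamethasone (Dex), a synthetic glucocorticoid, in A1-2 cells, while the other named sites shared by both lines had one. Scores from 3100 up are tied or nearly so and do not order sites.

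Top-ranking sites of A1-2 cells that were absent from the MTVL list numbered 20 of 2826 (0.708%, 0.433 to 1.09). Of these, 7 lay on chromosome 16 between 34 and 36 Mb, where the A1-2 list held 262 PR peaks and the MTVL list 3. A hormone-free GR peak and a hormone-free PR peak of A1-2 cells both lay under the same 12 of the 20, the 7 of that block included. Among these was a peak of 6010 bp on chromosome 2 (99527010 to 99533019, score 2935). An MTVL peak lay only 433 bp from it, from 99525385 to 99526577 (score 643, 70.1 percentile). Also among the 12 were A1-2 peaks of 7434 bp on chromosome 16 (34798486 to 34805919, score 2712) and of 3410 bp on chromosome 1 (110707134 to 110710543, score 2449). All 20 overlapped a GR Dex peak, and 0 overlapped a hormone-free MTVL peak. Of the 2806 shared top-decile A1-2 peaks, 95.6% overlapped a GR Dex peak and 21 (0.748%) a hormone-free PR peak of A1-2 cells. A hormone-free MTVL peak lay at 105 of these shared peaks (3.74%). The 20 were picked for having no MTVL peak after R5020, so their 0 is not separate evidence.

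The other 8 of the 20 had no hormone-free A1-2 peak of either receptor and were between 568 and 1365 bp wide. The strongest, all scored 3100, were on chromosome 1 (177558232 to 177559369), chromosome 11 (70823423 to 70824709) and chromosome X (65057805 to 65059169). The nearest MTVL peaks to them were 346785 bp, 35456 bp and 1023992 bp away. Chromosomes 1 and 11 each held another such site, at 177496510 to 177497077 (score 1913) and at 70825237 to 70826126 (score 1698). The remaining ones were on chromosomes 4 (14669437 to 14670109, score 2397), 9 (104719629 to 104720447, score 1442) and 5 (143800890 to 143801530, score 1327).

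Top-ranking MTVL sites without an A1-2 peak numbered 102 of 4307 (2.37%, 1.94 to 2.87) and were spread over 19 chromosomes. With lists of equal length they numbered 41 of 2826, and the A1-2 sites without an MTVL peak 28 of 2826, so the gap between the lines was smaller. Chromosome 7 held 13 of the 102, with 5.28% of the MTVL list, and chromosome 5 held 10, with 6.57% of it. Chromosome 2 held 9, with 7.37% of the list, and chromosome 16 held 0, with 2.90%. None of the 102 lay at a hormone-free peak of either line or at a GR peak after R5020. Such peaks were uncommon at the 4205 shared top-decile MTVL peaks too. GR peaks after R5020 lay at 168 of these and hormone-free MTVL peaks at 152 (3.61%). Hormone-free A1-2 peaks lay at 17 (PR) and 5 (GR) of them. The absence of these peaks alone therefore does not mark out the 102. A GR Dex peak of A1-2 cells lay at 10 of the 102 (9.80%), compared with 3239 of the 4205 shared top-decile MTVL peaks (77.0%). The GR list and the PR list that defines absence both come from A1-2 cells. The site of highest score lay on chromosome 13 from 109507154 to 109508627 (score 3228). Its nearest A1-2 peak, from 109511756 to 109512360 (score 309, 58.8 percentile of the A1-2 list), was 3129 bp away. The others named were on chromosome 9 (13063783 to 13065285, score 3192), chromosome 5 (34864646 to 34865807, score 3191; 40774731 to 40776562, score 3104) and chromosome 17 (70464160 to 70465449, score 3144). Their nearest A1-2 peaks were 5540, 13273, 58517 and 19213 bp away, with scores from 116 to 215.8.

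Few line-specific sites were near misses of a site in the other line. Of the A1-2-only peaks 108 (2.21%) lay within 200 bp of an MTVL peak and 9.71% within 1000 bp, and the median distance was 15415 bp. Of the MTVL-only peaks 1.23% lay within 200 bp of an A1-2 peak and 6.52% within 1000 bp, with a median of 26537 bp. The lists differ in length, so these medians are not comparable with each other. Within their own list, MTVL-only peaks of deciles 6 to 10 stood further from their neighbours than shared peaks of those deciles, with medians of 9194 and 6295 bp. In the A1-2 list the order was reversed, with 3858 bp for A1-2-only and 9156 bp for shared peaks of deciles 6 to 10. Away from the chromosome 16 block and from hormone-free A1-2 peaks, the A1-2 medians were 9828 and 9203 bp.

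Peak width rose with score in both lists, and shared peaks were wider in MTVL cells. Over all peaks the median was 645 bp in the A1-2 list (quartiles 540 and 787) and 671 bp in the MTVL list (576 and 817). In the one-to-one pairs the MTVL peak was wider in 73.4%, with a median ratio of MTVL to A1-2 width of 1.12 (1.115 to 1.123; quartiles 0.993 and 1.31). The ratio was 1.24 (1.22 to 1.26) where the A1-2 peak was in decile 1 and 1.08 (1.07 to 1.08) where it was in decile 10. Pairs in the same decile of both lists had ratios between 1.03 and 1.096. The pairs were nearly concentric, with a median of 36.5 bp between midpoints, 86.3% within 100 bp and 0.463% over 500 bp apart.

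Line-specific peaks were on the whole narrower than shared ones. In MTVL cells the median was 612 bp (610 to 614) for MTVL-only and 736 bp (733 to 739) for shared peaks. Within deciles of the MTVL score this difference nearly closed, from 531 against 562 bp in decile 1 to 674 against 678 bp in decile 6 and 1020 against 988 bp in decile 10. The intervals overlapped in decile 6 and in decile 10. MTVL-only peaks of at least 2000 bp numbered 25 (0.126%), compared with 272 shared ones (1.17%).

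In A1-2 cells the median was 605 bp (599 to 610) for A1-2-only and 654 bp (651 to 656) for shared peaks, and within each decile the order turned. A1-2-only peaks were wider by 32 bp in decile 1, by 58.5 bp in decile 6 and by 437 bp in decile 8, where the medians were 1147 bp (884 to 1246) and 710 bp (705 to 718). Peaks of at least 2000 bp made up 92 A1-2-only peaks (1.88%) and 188 shared ones (0.804%). The 193 A1-2-only peaks in deciles 8 to 10 had a median width of 1151 bp. Of these, 48 lay in the chromosome 16 block and 83 at a hormone-free GR or PR peak of A1-2 cells. Some peaks were in both groups. The 98 away from both had a median width of 740.5 bp, against 772 bp for the shared peaks away from both. By decile, A1-2-only peaks away from both had the larger median in deciles 1 to 8, with 554 against 519 bp in decile 1 and 740 against 710 bp in decile 8, and the smaller one in deciles 9 (740 against 755 bp) and 10 (854.5 against 873 bp).

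**Figure D3:**
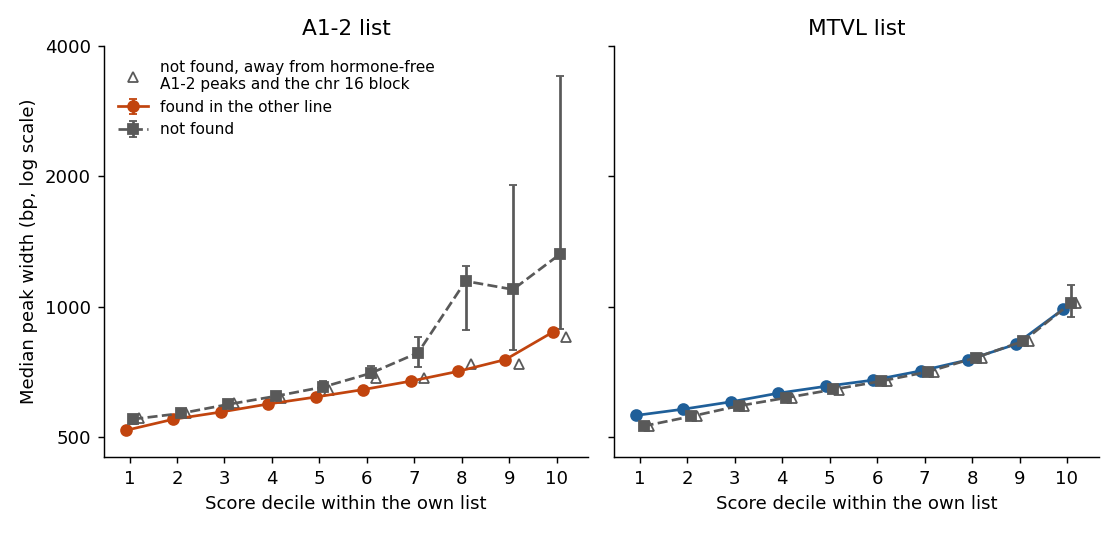
Median peak width in bp (y axis, log scale) by score decile within the own list (x axis), for peaks found in the other line (circles) and not found (squares), with 95% order-statistic intervals; triangles are peaks not found after leaving out hormone-free A1-2 peaks and the chromosome 16 block. In the A1-2 list the squares of deciles 8 to 10 lie above 1000 bp and the triangles between 740 and 855 bp.

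Other receptor lists of the series differed between the classes. GR peaks after R5020 lay at 353 A1-2-only PR peaks (7.23%, 6.52 to 7.99) and at 234 shared A1-2 peaks (1.00%, 0.877 to 1.14). These shares were not recounted away from the chromosome 16 block, which held 259 A1-2-only and 3 shared A1-2 peaks, or from hormone-free peaks. In the top decile 11 A1-2-only peaks lay at a GR peak after R5020. All were among the 12 at hormone-free GR and PR peaks of A1-2 cells. Hormone-free PR peaks of A1-2 cells lay at 217 A1-2-only peaks (4.44%, 3.88 to 5.06) and at 160 shared ones (0.684%, 0.583 to 0.799). Hormone-free PR peaks of MTVL cells, 219 in number, went the other way and lay at 223 shared A1-2 peaks (0.954%) and 2 A1-2-only peaks (0.041%). On the MTVL side they overlapped 218 MTVL peaks shared with A1-2 cells (0.941%) and 23 MTVL-only peaks (0.116%). There the other lists had the same order, and hormone-free PR peaks of A1-2 cells lay at 0.682% and 0.101%. These shares were not matched for score. GR Dex peaks lay at 40.1% (38.7 to 41.5) of all A1-2-only peaks and at 49.9% (49.2 to 50.5) of all shared A1-2 peaks. Within score deciles the order was the opposite, and in each of deciles 1 to 9 the share was larger among A1-2-only peaks, with intervals that did not overlap. The shares were 23.7% (21.3 to 26.2) and 18.03% (16.2 to 20.003) in decile 1, 54.1% (49.5 to 58.8) and 34.7% (32.8 to 36.7) in decile 5, and 93.1% (86.9 to 97.0) and 64.6% (62.8 to 66.5) in decile 8. Away from the block and from hormone-free A1-2 peaks they were 86.9% and 65.0% in decile 8. The GR lists come from A1-2 cells only, as do the A1-2 PR peaks they were set against.

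The lines also differed in where along the chromosomes their PR sites lay. The genome was divided into segments of 5 Mb, of which 571 held at least 20 peaks over both lists. In each the share of the A1-2 list was divided by the share of the MTVL list. The median ratio was 0.931, with quartiles of 0.747 and 1.11. It was over 1.5 in 44 segments (7.71%), in 38 of them with an interval above 1, and under 1/1.5 in 85 segments (14.9%), in 48 with an interval below 1. The 44 lay on 12 chromosomes. They were 8 of the 13 segments of chromosome 20 and 8 of the 16 of chromosome 16. On chromosome 14 they were 7 of 18, and on chromosome 11 they were 5 of 26. The 85 lay on 18 chromosomes, with 12 of the 37 segments of chromosome 4 and 12 of the 26 of chromosome 12. Chromosome 12 held segments of both kinds, 4 and 12, while chromosomes 15 and 22 held none of either.

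**Figure D4:**
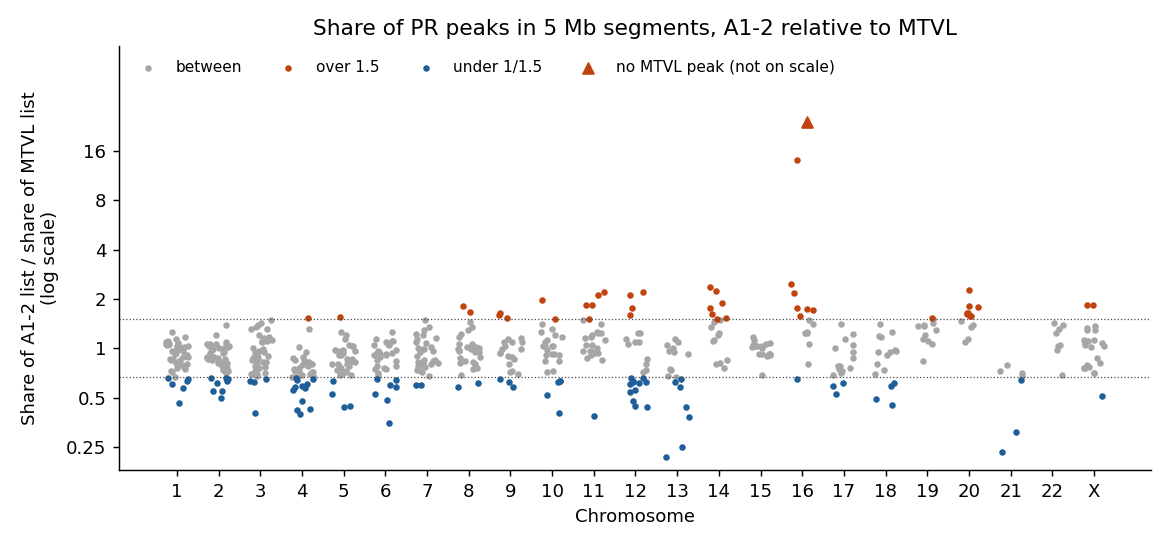
Ratio of a 5 Mb segment's share of the A1-2 PR list to its share of the MTVL PR list (y axis, log scale) for the 571 segments, by chromosome (x axis; points are spread sideways at random); dotted lines mark 1.5 and 1/1.5. Chromosomes 11, 12, 14, 16 and 20 reach above 2 and chromosomes 13 and 21 fall under 0.35; the triangle is a chromosome 16 segment with 38 A1-2 peaks and 0 MTVL peaks, drawn off the scale.

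The highest ratios were on chromosome 16. The segment from 35 to 40 Mb held 38 A1-2 peaks and 0 MTVL peaks, so its ratio has only a lower 95% limit, 14.95. The segment from 30 to 35 Mb held 278 and 30, a ratio of 14.1 (9.67 to 21.3). Of the 30 MTVL peaks 29 were found in A1-2 cells, and of the 278 A1-2 peaks 29 (10.43%) were found in MTVL cells. Both cover the block from 34 to 36 Mb. Next came chromosome 16 from 0 to 5 Mb with 176 and 109 peaks (2.46, 1.93 to 3.15), chromosome 14 from 105 to 110 Mb with 56 and 36 (2.37, 1.53 to 3.71) and chromosome 20 from 40 to 45 Mb with 97 and 65 (2.27, 1.64 to 3.16). In these last 3 segments 87.2%, 83.3% and 83.1% of the MTVL peaks were found in A1-2 cells.

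The lowest ratios were on chromosomes 13, 21 and 6. Chromosome 13 from 65 to 70 Mb held 3 A1-2 and 21 MTVL peaks (0.218, 0.0416 to 0.729), and from 85 to 90 Mb it held 7 and 43 (0.248, 0.0942 to 0.556). Chromosome 21 held 7 and 46 from 20 to 25 Mb (0.232, 0.0883 to 0.517) and 13 and 64 from 15 to 20 Mb (0.31, 0.156 to 0.568). Chromosome 6 from 55 to 60 Mb held 9 and 39 (0.352, 0.15 to 0.738). All A1-2 peaks in these 5 segments were also MTVL sites, while between 14.3% and 23.1% of the MTVL peaks were found in A1-2 cells. Few peaks lie behind each of these ratios, and the segments were picked for them.

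Segments of like ratio lay next to each other. Runs of at least 2 adjacent segments past 1.5 in the same direction, a grouping chosen after the values were seen, numbered 26. Of the 44 higher segments 33 were in 9 runs, and of the 85 lower segments 45 were in 17 runs. The longest was on chromosome 12, where 11 segments from 60 to 115 Mb held 370 A1-2 and 991 MTVL peaks, a ratio of 0.569 (0.504 to 0.642). At the other end of the same chromosome, from 0 to 10 Mb, the lists held 128 and 95 peaks, a ratio of 2.05 (1.56 to 2.71), and the single segment from 50 to 55 Mb held 180 and 129 (2.13, 1.69 to 2.69).

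The runs in which A1-2 cells held the larger share included chromosome 16 from 0 to 40 Mb, with 858 and 460 peaks (2.84, 2.54 to 3.19). Without its block from 34 to 36 Mb it held 596 and 457, a ratio of 1.99 (1.76 to 2.25). Chromosome 11 from 60 to 80 Mb held 562 and 427 (2.01, 1.77 to 2.28). Chromosome 14 from 90 to 110 Mb held 451 and 361 (1.90, 1.65 to 2.19), and chromosome 20 from 20 to 50 Mb held 618 and 555 (1.70, 1.51 to 1.91). Shorter runs covered 130 to 145 Mb of chromosome 9 (1.57, 1.31 to 1.87), 70 to 80 Mb of chromosome 14 (1.70, 1.398 to 2.06), 135 to 145 Mb of chromosome 8 (1.68, 1.27 to 2.23) and 145 to 155 Mb of chromosome X (1.84, 1.299 to 2.61).

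Among the runs with the smaller A1-2 share, chromosome 21 from 15 to 25 Mb held 20 and 110 peaks (0.277, 0.163 to 0.449) and chromosome 13 from 80 to 95 Mb held 39 and 162 (0.367, 0.252 to 0.523). Chromosome 10 had 2 such runs, from 30 to 40 Mb (0.452, 0.301 to 0.664) and from 45 to 55 Mb (0.628, 0.437 to 0.89). Chromosome 17 from 60 to 70 Mb held 65 and 177 (0.56, 0.415 to 0.748). The runs were chosen on counts that include the higher-ranking peaks, so their values in these peaks alone are a description. Counted over deciles 6 to 10 of each list, the 9 higher runs kept ratios from 1.62 to 2.55, and the 17 lower runs had ratios from 0.322 to 0.863, with 15 still under 1/1.5.

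The share of sites found in the other line also departed from its score-based value in these runs. Of the MTVL peaks on chromosome 12 from 60 to 115 Mb, 35.0% were found in A1-2 cells, where the MTVL score deciles of the whole list would give 52.3%. On chromosome 21 from 15 to 25 Mb the values were 18.2% and 49.9%. On chromosome 11 from 60 to 80 Mb 82.7% were found against 53.5% from the score, and on chromosome 16 from 0 to 40 Mb 79.6% against 53.9%. The A1-2 peaks there showed the reverse. On chromosome 12 from 60 to 115 Mb 94.9% of them were MTVL sites against 83.3% from the A1-2 score, and on chromosome 11 from 60 to 80 Mb 61.9% were against 80.8%. The ratio of shares and the share found count the same peaks, so they are not separate evidence of a difference.

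The rank of shared sites moved along the chromosomes with the ratio of shares. For each segment the median difference in rank, A1-2 minus MTVL, was taken over its one-to-one pairs, ranked among all pairs. In 463 segments with at least 20 pairs it rose with the ratio of shares (Spearman 0.71, across segments that share the same 2 libraries). In all 38 such segments with a ratio over 1.5 it was above 0, with a median of 10.8 percentile points. Of the 35 with a ratio under 1/1.5 it was above 0 in 3, with a median of -7.39 points, and of the 390 between them it was above 0 in 192. The scores that rank the pairs also decide which peaks enter a list, so rank and ratio are not separate evidence of a difference. On chromosome 11 from 60 to 80 Mb the 332 shared pairs ranked a median of 14.02 points higher in A1-2 cells, and on chromosome 12 from 60 to 115 Mb the 343 pairs had a median of -8.63. The ratio compares shares of lists of unequal length, and some segments with a ratio over 1.5 held no more A1-2 than MTVL peaks, such as chromosome 9 from 135 to 140 Mb with 97 of each. The input list, from A1-2 cells only, held 12 peaks in the chromosome 11 run, 45 in the chromosome 12 run and 29 in the chromosome 16 run.

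**Figure D5:**
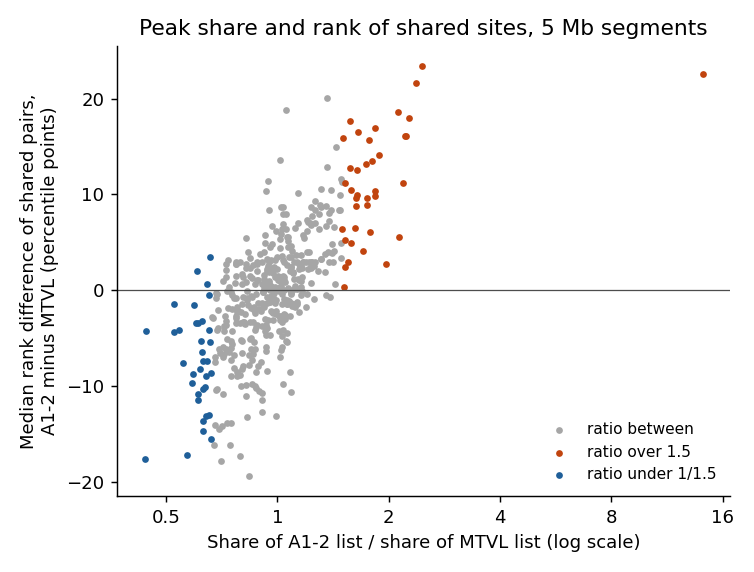
Median rank difference of shared peak pairs, A1-2 minus MTVL in percentile points (y axis), against the ratio of a segment's share of the A1-2 list to its share of the MTVL list (x axis, log scale), for the 463 segments of 5 Mb with at least 20 pairs. The 38 segments with a ratio over 1.5 all lie above 0, and 3 of the 35 with a ratio under 1/1.5 do.

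Whole chromosomes were compared at like score. The number of MTVL sites found in A1-2 cells was divided by the number that the MTVL score deciles give. The quotient was outside 0.9 to 1.1 on 11 of the 23 chromosomes. It was highest on chromosomes 20 (757 found against 557.1, 1.36), 19 (557 against 422.8, 1.32), 14 (994 against 795.7, 1.25) and 16 (862 against 696.5, 1.24), and lowest on chromosomes 21 (220 against 316.6, 0.695), 13 (574 against 682.3, 0.841), 12 (0.87) and 4 (0.873). Chromosomes 19 and 22 (1.14) were outside these limits with 1 of 12 and 0 of 8 segments past 1.5. For A1-2 sites found in MTVL cells the quotient was outside these limits on 4 chromosomes: 16 (0.714, or 0.856 without its block), 20 (0.865) and 14 (0.88) below, and 21 (1.12) above. Most A1-2 peaks were shared, which leaves this quotient little room above 1, so the 4 is not comparable with the 11. Taken over A1-2-only peaks, the quotient ran from 0.431 on chromosome 21 to 2.36 on chromosome 16. It was 0.568 on chromosome 17 and 1.39 on chromosome 11. Chromosome 16 alone held 603 of the 4883 A1-2-only peaks (12.3%) with 5.21% of the A1-2 list, and 259 of the 603 were in the block. Shared pairs on chromosome 21 ranked a median of 11.3 points lower in A1-2 cells and had the largest ratio of MTVL to A1-2 width among the chromosomes, 1.29. On chromosome 20 they ranked 9.73 points higher and had the smallest, 1.01.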

How the data were processed

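Each library has its own peak list. Bowtie 1.1.1, MACS 1.4.2, bedtools and the build hg19 are credited to the submitters' processing notes; settings, control library and read depth were not given in the sources used here. The deposited score is each peak's own value, at least 100 in these lists (a p of 1e-10 in the deposited names), and reaches a ceiling near 3100. Samples were grouped by title. Peaks outside chromosomes 1 to 22 and X (10 of A1-2, 0 of MTVL) and those at A1-2 input peaks (291 and 328) were left out. Sites counted as shared at an overlap of 1 bp or more. Shares have exact Clopper-Pearson intervals, medians order-statistic intervals, and ratios of shares intervals from the exact interval of A1-2 peaks among a segment's peaks.

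Deciles have equal numbers of peaks and percentiles put ties at their middle. Named peaks were the 5 of highest score in each class, the 3 pairs of largest rank change each way, and the 5 segments of highest and of lowest ratio; the remaining top-decile A1-2-only sites, adjacent runs and other segments were named after their values were seen. Members, lists and rules were chosen with earlier results of these data known. The reference tables are GRCh38, not hg19. So 0 genes were placed, no sequence was read, and the planned gene and motif counts were not run. The overlap, standardisation and segment steps were run on simulated data. A pass was required of the overlap counts and of a standardised ratio, and no limit was set for the segment step. Python 3.11.15, numpy 2.4.6, scipy 1.17.1, pandas 2.3.3 and matplotlib 3.10.9 were used.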

Additional observations from a re-analysis of the deposited data

How the results depend on the processing

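Of 68 alternatives, 44 stayed within the interval of the value, or within 1.5 times for counts, and 24 moved further; 3 were added after seeing the data. With only peaks scored 200 or more kept, input included, 86.2% of A1-2 and 49.4% of MTVL peaks were shared, 12 top-decile A1-2 peaks had no MTVL peak, and the line-specific median widths were 682 and 685 bp. With midpoints within 200 bp the shares were 76.6% and 50.3%, the top-decile sites without a counterpart 313 and 562, the top-decile partners 69.0%, and the widths 637 and 622 bp. That rule counts wide overlapping peaks as different sites. With lists of equal length the shares were 69.4% and 68.5%, the partners 63.2%, the top-decile MTVL sites without an A1-2 peak 41, the MTVL-only width 676 bp, and 7 chromosomes lay outside 0.9 to 1.1. Without chromosome 16 from 34 to 36 Mb 83.5% of A1-2 peaks were shared and 13 top-decile A1-2 peaks had no MTVL peak, and without hormone-free PR sites 9 had none. Leaving out that block and hormone-free A1-2 peaks of GR and PR gave an A1-2-only width of 596.5 bp. Segments of 10 Mb gave 60 past 1.5 of 300, compared with 129 of 571 at 5 Mb. For A1-2 peaks found in MTVL cells, 4 chromosomes lay outside the limits, a count not comparable with that of the MTVL side. No paired analysis was possible because each line and condition had 1 library. Depth, unknown here, limits what absence from a list means: a site under the threshold is not shown to be unbound.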
